A study of Homo sapiens with 4 samples.

Results

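Making ribosomes begins in the nucleolus, where ribosomal RNA is transcribed, chemically modified and cut by a large set of assembly factors. Box C/D and box H/ACA small nucleolar ribonucleoproteins (snoRNPs) modify the RNA, the small-subunit processome handles the precursor of the small subunit, and PeBoW and related factors handle that of the large subunit. The mRNAs that encode these factors were examined here in RNA immunoprecipitation sequencing (RIP-seq) of KIAA1429, also called VIRMA, the scaffold protein of the complex that writes N6-methyladenosine (m6A) on mRNA. A gene counted as a ribosome biogenesis factor when its name followed the UTP, NOP, NOL or RRP series with a number, or was one of a short set of WDR, snoRNP core, PeBoW, IMP and nucleolar protein names. This choice used names only and found 53 of 13300 gene names.

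The cells were HCCLM3, an established human hepatocellular carcinoma line. Lysates were incubated with beads that carried an antibody against KIAA1429 or normal IgG, which measures the background of the precipitation, and each group held 2 libraries (KIAA1429 RIP and IgG RIP, replicates 1 and 2). No treatment, knockdown or input library belonged to the 4 libraries, and nothing in the labels says whether replicates came from separate cultures, so p-values measure only the spread between these libraries. Values are fragments per kilobase of transcript and per unit of mapped fragments (FPKM), summed over the listed transcripts of each gene. Fold changes are differences between group means of log2(FPKM + 1), KIAA1429 RIP minus IgG RIP, which understates the change of genes at low FPKM. Hepatocyte and epithelial mRNAs fit the label of the line, with ALB between 53.5 and 76.3 FPKM, AFP between 99.1 and 128 FPKM and KRT18 between 820 and 1048 FPKM, whereas HNF4A stayed between 0.305 and 1.11 FPKM. PTPRC, PECAM1 and COL1A1, which mark leukocytes, endothelium and stroma, were not listed, and ACTA2 lay between 18.2 and 37.1 FPKM.

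The study's question was which mRNAs KIAA1429 binds, and GGAC is a core of the sites at which m6A is written. The sequence around a GGAC is therefore shown for 7 of the factor mRNAs. The first 4 encode the proteins of the box H/ACA snoRNP, and the others encode the small-subunit factors and the nucleolar protein whose values stand out below. Each line gives 25 bases of the most abundant listed transcript on GRCh37, 5′ to 3′ on the strand of the mRNA, with GGAC in capitals. It holds the GGAC nearest to the stop codon among those whose 25 bases lie within a single exon. A nearer GGAC close to an exon boundary was passed over.
NOP10, chr15:34634087-34634111, minus strand, exon 2 of 2, 3′ of the stop codon: caaactcttcGGACtgtgagccctg
GAR1, chr4:110743559-110743583, plus strand, exon 5 of 7, coding: aggtgagaaaGGACctccaagaggt
NHP2, chr5:177576645-177576669, minus strand, exon 4 of 4, 3′ of the stop codon: gctggcagcaGGACgactggctgtc
DKC1, chrX:154004538-154004562, plus strand, exon 14 of 15, coding: agagtaagaaGGACaagaaggccaa
WDR75, chr2:190340158-190340182, plus strand, exon 21 of 21, 3′ of the stop codon: gaggatccttGGACtttgtgttttt
NPM1, chr5:170832344-170832368, plus strand, exon 9 of 11, coding: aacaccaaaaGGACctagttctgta
UTP14A, chrX:129063493-129063517, plus strand, exon 15 of 15, coding: cctcaaggtcGGACctgtctgtcat
The motif shown was 29 bases from the stop codon in WDR75, 59 in NHP2, 72 in NOP10 and 77 in UTP14A. That distance was 116 bases in DKC1, 154 in GAR1 and 163 in NPM1. GGAC, searched on the mRNA strand only, was present at least once in 51 of the 51 factor mRNAs with a sequence and in 98.5% of all mRNAs tested, so its presence did not set these mRNAs apart. No m6A measurement belongs to these libraries, and a match is only a match of letters.

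As a group, the ribosome biogenesis factor mRNAs leaned toward KIAA1429 RIP, but none passed the test and the size of the lean depended on 1 IgG library. FPKM is relative to each library, and no input library was analysed here, so the amount of each mRNA in the lysate was not measured. The median fold change of the 53 gene totals was 0.21 on the log2 scale, against 0.02 over all 11361 gene totals with a mean of at least 1 FPKM. Of the 53 factors, 36 had a positive fold change (67.9%, against 51.4% of all gene totals) and the middle 50% lay between -0.07 and 0.54. In limma, 0 of 53 passed an absolute log2 fold change above 1 with an adjusted p under 0.05, as did 0.0% of all gene totals, and 4 factors were higher at an unadjusted p under 0.05 (background 3.17%) and 0 were lower (background 1.43%). The lowest adjusted p among the factors was 0.531 in limma, for WDR75, whose IgG values were both 0. By size alone, 5 factors had a log2 fold change above 1 (background 5.3%), namely WDR75, GAR1, UTP14C, UTP14A and NOL12. A fold change below -1 occurred in 0 factors (background 3.7%). That of WDR75 has no fixed size, because both its IgG values were 0 and the number added to FPKM sets it.

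The spread between libraries can also be read without a model. In 19 factors both KIAA1429 RIP values lay above both IgG RIP values (35.8%, against a background of 16.6%), and in 4 both lay below (7.55%, against 15.2%). The other 30 factors had groups that overlapped. With 2 libraries against 2, the smallest two-sided p of an exact permutation test is 0.333, so no single factor could reach significance by that test.

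IgG RIP replicate 2 stood apart for these mRNAs. It held the lowest of the 4 values in 35 of 53 factors (66.0%), compared with 33.4% of all gene totals, and 44 factors were higher in IgG RIP replicate 1 than in IgG RIP replicate 2. The median difference between the IgG replicates was 0.47 (log2, replicate 1 minus 2) for the factors and 0.15 for all gene totals. Against IgG RIP replicate 1 the factors' median difference was 0.22 for KIAA1429 RIP replicate 1 and -0.13 for KIAA1429 RIP replicate 2. Against IgG RIP replicate 2 the same medians were 0.51 and 0.37. Without IgG RIP replicate 2 the median fold change of the factors was 0.02, against -0.08 over all gene totals, and of the 52 factors then tested 22 lay above (42.3%, background 29.4%) and 15 below (28.8%, background 37.9%) the remaining IgG library.

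**Figure D1:**
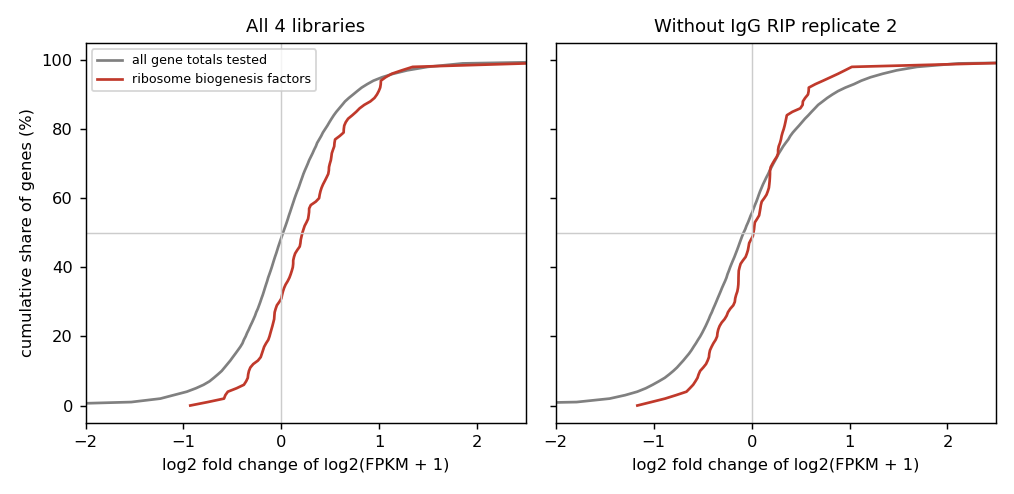
Cumulative share of genes (vertical axis, percent) by log2 fold change of log2(FPKM + 1), KIAA1429 RIP minus IgG RIP, for all gene totals tested (grey) and the ribosome biogenesis factors (red), with all 4 libraries on the left and without IgG RIP replicate 2 on the right. The red curve crosses 50% at 0.21 on the left and at 0.02 on the right, while the grey curve crosses it at 0.02 and at -0.08.

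In absolute terms the factor mRNAs were a small share of each library. They summed to 1558 and 1268 FPKM in IgG RIP replicates 1 and 2 (0.527% and 0.402% of all FPKM) and to 1802 and 1633 FPKM in KIAA1429 RIP replicates 1 and 2 (0.535% and 0.480%). The share in KIAA1429 RIP replicate 2 lay below that in IgG RIP replicate 1, so the groups overlapped. Mean levels ran from 1.08 FPKM for NOL4L to 323 FPKM for NPM1, with a median of 14.0 FPKM over the factors and 8.69 FPKM over all gene totals.

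**Figure D2:**
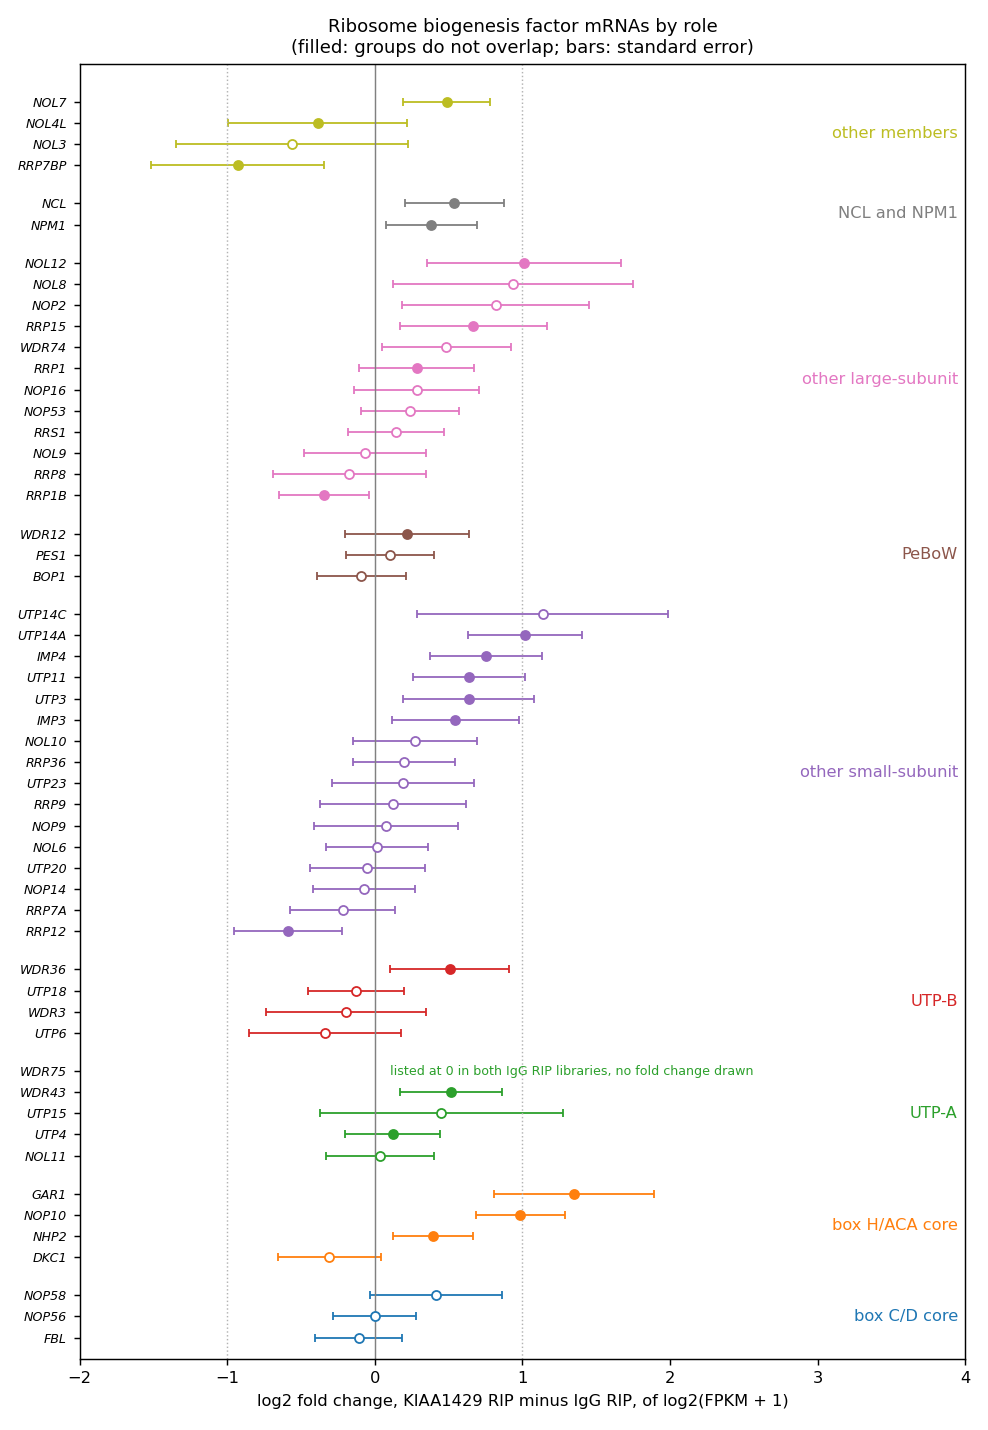
Log2 fold change of log2(FPKM + 1), KIAA1429 RIP minus IgG RIP (horizontal axis), for each ribosome biogenesis factor mRNA, grouped and coloured by role, with bars for the standard error from limma. Filled points mark the factors whose 2 KIAA1429 RIP values all lie on one side of the 2 IgG RIP values, dotted lines mark -1 and 1, and WDR75 has no point because both its IgG values were 0.

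The box H/ACA snoRNP converts uridines of ribosomal RNA to pseudouridine, and 3 of its 4 core mRNAs had groups apart on the higher side. NOP10, a small structural protein of the complex, was at 45.9 and 40.0 FPKM with IgG and 101 and 73.0 FPKM with the KIAA1429 antibody. Its 2 KIAA1429 values were the highest, and the group means were 42.97 ± 4.19 and 87.0 ± 19.8 FPKM (SD, n = 2). The fold change was 0.99 with a standard error of 0.30 and limma's adjusted p was 0.993. GAR1, which contacts the catalytic subunit, was at 18.1 and 5.62 FPKM with IgG and 34.4 and 22.2 FPKM with the KIAA1429 antibody, a fold change of 1.35 with a standard error of 0.54. Much of the GAR1 total in KIAA1429 RIP replicate 1 came from ENST00000394631, at 16.3 FPKM there and at most at 1.20 FPKM in the other libraries. The most abundant GAR1 transcript, ENST00000226796, had a fold change of 0.95 with a standard error of 0.63. Its nearest values of the groups were 17.4 FPKM with IgG and 18.1 FPKM with the KIAA1429 antibody. The 2 IgG values of the GAR1 total differed more than 3 times. Without IgG RIP replicate 2 the fold change of that total was 0.58, while that of NOP10 was 0.89.

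NHP2, the RNA-binding core protein, was at 85.3 and 78.2 FPKM with IgG and 107 and 108 FPKM with the KIAA1429 antibody, so the groups were apart by more than either pair's spread. DKC1, the pseudouridine synthase itself, had groups that overlapped, with 43.7 and 26.2 FPKM with IgG and 28.6 and 25.7 FPKM with the KIAA1429 antibody. Its fold change of -0.31 was smaller than its standard error of 0.35, and it was -0.056 over protein-coding transcripts only. The non-coding ENST00000473552 made up much of the difference, at 13.9 and 9.72 FPKM with IgG and 5.62 and 7.57 FPKM with the KIAA1429 antibody. The gene of NHP2 overlaps RMND5B on the opposite strand over 376 exonic bases of the listed transcript, and whether the authors' quantification used strand is not given in the sources used here.

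The box C/D snoRNP adds methyl groups to the ribose of ribosomal RNA. None of its 3 core mRNAs found by name had groups apart as gene totals (background 16.6% higher and 15.2% lower). SNU13, a core protein of this snoRNP outside the names, also had groups that overlapped. FBL, the methyltransferase fibrillarin, was among the most abundant factors at 178 and 144 FPKM with IgG and 137 and 160 FPKM with the KIAA1429 antibody. NOP56 was nearly level, at 39.0 and 37.7 FPKM against 38.4 and 38.2 FPKM. NOP58 was at 15.0 and 7.57 FPKM with IgG and 18.4 and 11.6 FPKM with the KIAA1429 antibody. The median fold change was -0.00 over the 3 box C/D totals found by name and 0.69 over the box H/ACA totals. This order depended on the transcripts summed. Over protein-coding transcripts only, the medians were 0.84 for box C/D and 0.69 for box H/ACA.

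The most abundant coding transcript lay on the higher side in all 3 box C/D mRNAs found by name. FBL ENST00000221801 was at 80.7 and 93.9 FPKM with IgG and 96.1 and 113 FPKM with the KIAA1429 antibody. NOP56 ENST00000329276 was at 20.1 and 5.50 FPKM against 21.3 and 22.0 FPKM, and NOP58 ENST00000264279 at 11.6 and 5.04 FPKM against 18.4 and 11.6 FPKM. For NOP56 and NOP58 the low value again came from IgG RIP replicate 2, and the nearest NOP58 values of the groups were equal to 3 digits. The difference between the 3 box C/D and the 4 box H/ACA mRNAs was not tested.

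**Figure D3:**
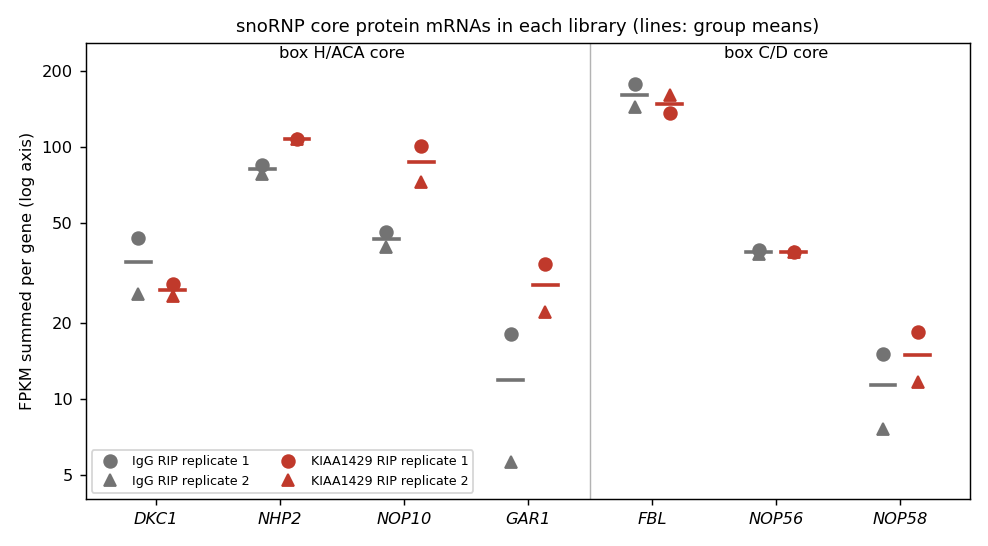
FPKM summed per gene (logarithmic axis) for the 4 box H/ACA and 3 box C/D core protein mRNAs in each library, with grey for IgG RIP, red for KIAA1429 RIP, circles for replicate 1, triangles for replicate 2 and lines for group means. The red points lie above both grey points for NHP2, NOP10 and GAR1, and the colours overlap for DKC1, FBL, NOP56 and NOP58.

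UTP-A is the subcomplex of the small-subunit processome that also helps RNA polymerase I transcription. All 5 of its mRNAs found by name had positive fold changes (background 51.4%). HEATR1, a UTP-A gene outside the names that is counted below with the rest of the pathway, was apart on the lower side. WDR75 alone among the factors was listed at 0 in both IgG libraries, so no fold change is given. In the KIAA1429 libraries it was at 12.9 and 11.8 FPKM. Of all gene totals tested, 47 were at 0 in both IgG libraries and above 0 in both KIAA1429 libraries (0.414%), and 27 showed the reverse (0.238%). WDR75, UTP14C and NOL8 were the 3 factors listed at 0 in at least 1 library (background 7.94%), in each case an IgG library. With 1 added to FPKM, limma gave WDR75 an unadjusted p of 0.000154 and an adjusted p of 0.531. Limma's adjusted p was 0.997 with 0.1 added and 0.985 with 0.01 added. Both IgG values were 0, so these p-values depend on the number added and do not measure how far WDR75 was apart. The value rests on 1 listed transcript, ENST00000314761 (chr2:190306159-190340291, plus strand), of 7 annotated, and a listed 0 can be a failed estimate.

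The other UTP-A mRNAs found by name stayed closer together. WDR43 was at 19.8 and 12.9 FPKM with IgG and 23.5 and 23.2 FPKM with the KIAA1429 antibody, with the lowest value in IgG RIP replicate 2. UTP4 was apart by little, at 15.7 and 15.0 FPKM against 15.7 and 17.8 FPKM. UTP15 was higher in both replicates 1 than in both replicates 2, at 9.02 and 1.33 FPKM against 10.2 and 2.90 FPKM. NOL11 was at 16.7 and 11.2 FPKM against 13.2 and 14.9 FPKM, and its groups overlapped.

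UTP-B, a second subcomplex of the small-subunit processome, had a median fold change of -0.16 over the 4 of its mRNAs found by name. Outside the names, TBL3 of UTP-B was apart on the higher side and PWP2 of UTP-B had groups that overlapped. Of the 4 found by name, WDR36 alone had groups apart, on the higher side (background 16.6%). It was at 11.8 and 6.77 FPKM with IgG and 13.8 and 12.5 FPKM with the KIAA1429 antibody. UTP18 was at 25.7 and 24.4 FPKM against 27.3 and 19.1 FPKM. In WDR3 and UTP6 the KIAA1429 replicates differed from each other by more than the groups did, with WDR3 at 11.3 and 12.4 FPKM against 18.1 and 5.58 FPKM and UTP6 at 7.39 and 7.19 FPKM against 8.88 and 3.36 FPKM.

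Of the 16 other small-subunit factors, 5 were apart on the higher side and 1 on the lower (31.2% and 6.25%, background 16.6% and 15.2%), with a median fold change of 0.19. UTP14A, which works with an RNA helicase in removing U3 snoRNA from the precursor, was at 8.47 and 5.44 FPKM with IgG and 14.6 and 15.0 FPKM with the KIAA1429 antibody. Its fold change was 1.02 with a standard error of 0.39, and limma's adjusted p was 0.997. RRP12, a factor for export of the small subunit, was at 24.4 and 15.7 FPKM with IgG and 13.9 and 11.6 FPKM with the KIAA1429 antibody, a fold change of -0.59 with a standard error of 0.37, which was -0.29 without IgG RIP replicate 1 and -0.89 without IgG RIP replicate 2.

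UTP14C is an expressed retrocopy of UTP14A, and their listed transcripts were 93.7% identical over 2495 aligned bases, so fragments could be split between them. UTP14C was at 4.88 FPKM and 0 in IgG RIP and at 4.29 and 4.37 FPKM with the KIAA1429 antibody, which overlapped. All 5529 exonic bases of its listed transcript are also exonic in ALG11 on the same strand, and ALG11 itself was at 6.39 and 5.93 FPKM with IgG and 7.59 and 5.03 FPKM with the KIAA1429 antibody. The stretch of UTP14C that matches the UTP14A window printed above differs at 2 positions, counted from 1 at the 5′ end of the window with the UTP14A base first, as G11A and T18C. The first of these falls within the GGAC, and the tetramer at that place is in capitals.
UTP14C, chr13:52605162-52605186, plus strand: cctcaaggtcAGACctgcctgtcat

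RRP7A, a small-subunit factor, and RRP7BP, the non-coding copy of that gene, were 95.7% identical over 2035 aligned bases. RRP7BP had the lowest fold change of all factors, at 2.76 and 1.71 FPKM with IgG and 0.584 and 0.770 FPKM with the KIAA1429 antibody, a value of -0.93 with a standard error of 0.59. RRP7A was at 14.6 and 11.2 FPKM against 11.2 and 10.5 FPKM, and its groups overlapped narrowly. Both overlap genes on the opposite strand.

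On the large-subunit side, PeBoW, the trimer needed for processing of the large-subunit precursor, had a median fold change of 0.10. PES1 was at 38.8 and 52.1 FPKM with IgG and 47.5 and 49.1 FPKM with the KIAA1429 antibody, and BOP1 was at 32.5 and 41.2 FPKM against 37.4 and 31.5 FPKM. WDR12 was apart by less than 1 FPKM, at 5.42 and 5.15 FPKM against 5.75 and 6.88 FPKM. PES1 and BOP1 were also 2 of the factors in which IgG RIP replicate 2 was not the lowest library but the highest.

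Among the 12 other large-subunit factors the median fold change was 0.28, with 3 apart on the higher side and 1 on the lower (background 16.6% and 15.2%). NOL12, an RNA-binding nucleolar protein, was at 1.00 and 1.03 FPKM with IgG and 1.51 and 5.61 FPKM with the KIAA1429 antibody. Its fold change of 1.01 came from transcripts listed in 1 library each, ENST00000611699 at 5.24 FPKM in KIAA1429 RIP replicate 2 and the non-coding ENST00000493862 at 1.12 FPKM in KIAA1429 RIP replicate 1. Over protein-coding transcripts only, it was 0.58. NOP2, a ribosomal RNA methyltransferase, was at 22.9 and 5.39 FPKM against 27.1 and 15.9 FPKM over 11 listed transcripts, the most of any factor, and its fold change of 0.82 became -0.13 without IgG RIP replicate 2. NOP53 was at 57.6 and 93.5 FPKM against 81.0 and 92.7 FPKM. RRP1B was lower in KIAA1429 RIP, at 29.2 and 25.6 FPKM against 19.97 and 22.7 FPKM.

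NPM1 and NCL, abundant nucleolar proteins that act as chaperones and bind RNA, were both apart on the higher side. NPM1 was at 302 and 258 FPKM with IgG and 387 and 344 FPKM with the KIAA1429 antibody, with means of 280 ± 31.1 and 365 ± 30.5 FPKM (SD, n = 2) and a fold change of 0.38. NCL was at 118 and 71.1 FPKM against 139 and 129 FPKM, with its low value in IgG RIP replicate 2 and a fold change of 0.54. Without that library the fold changes were 0.27 for NPM1 and 0.18 for NCL.

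Below the gene level, the 4 listed NPM1 transcripts moved in different directions. ENST00000296930, which has 11 exons and 1320 bases, was at 76.6 and 41.2 FPKM with IgG and 161 and 174 FPKM with the KIAA1429 antibody, a fold change of 1.55 with a standard error of 0.39 (adjusted p = 0.786 in limma over 23375 transcripts). ENST00000351986, which lacks exon 8 of that transcript (chr5:170827843-170827929, 87 bases), was at 127 and 130 FPKM with IgG and 82.8 and 52.5 FPKM with the KIAA1429 antibody, a fold change of -0.95 with a standard error of 0.34 (adjusted p = 0.879). ENST00000393820, which lacks exons 10 and 11 and ends elsewhere, was at 91.5 and 77.0 FPKM against 140 and 114 FPKM. ENST00000521672 was at 7.004 and 10.3 FPKM against 3.71 and 3.57 FPKM. The groups did not overlap for any of the 4. ENST00000351986 shares 1217 of its 1237 bases with ENST00000296930, so the split of fragments between these 2 depends on few bases, whereas ENST00000393820 shares 869 of its 1598. The annotation names 49 NPM1 pseudogenes.

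**Figure D4:**
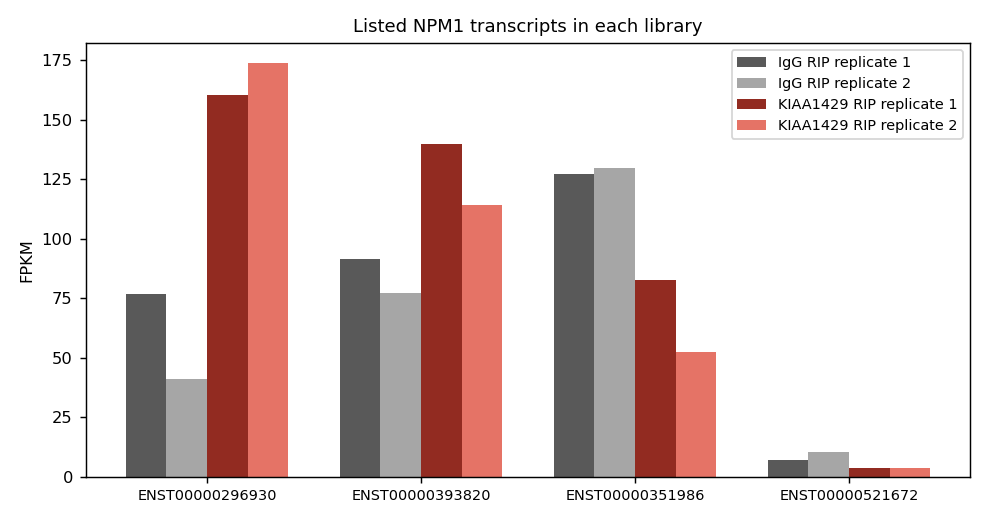
FPKM (vertical axis) of each listed NPM1 transcript in the 4 libraries, grey for IgG RIP and red for KIAA1429 RIP, 1 bar per library. The red bars are taller than the grey ones for ENST00000296930 and ENST00000393820 and shorter for ENST00000351986 and ENST00000521672.

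Transcripts of opposite sign within a gene were not particular to the factors. Of 29 factors with at least 2 transcripts at a mean of 1 FPKM or more, 21 had transcripts of both signs (72.4%, against 74.99% of 5754 such genes in all), and the median absolute fold change was 0.62 over 115 transcripts and 0.34 over the gene totals. No transcript passed the threshold (background 0.0%), 6 were higher and 1 lower at an unadjusted p under 0.05 (background 3.03% and 2.33%), and the lowest adjusted p was 0.474 in limma. In 27 transcripts the KIAA1429 values were both above the IgG values and in 16 both below (background 15.2% and 14.5%). In UTP14A the higher total lay in ENST00000394422, at 0.793 and 4.76 FPKM with IgG and 14.2 and 14.8 FPKM with the KIAA1429 antibody, while ENST00000425117 was at 6.94 FPKM in IgG RIP replicate 1 and at most at 0.208 FPKM in the other libraries. The main transcript of NOP10 and the one of WDR75 were among the 6, as were ENST00000394422 and ENST00000296930. Of the 115, 3 were listed at 0 in both IgG libraries and above 0 in both KIAA1429 libraries, and 3 showed the reverse (background 2.36% and 2.13%).

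Outside the role sets lay NOL3, NOL4L, NOL7 and RRP7BP, the last described above. NOL3 encodes an inhibitor of apoptosis named for the nucleolus, and it was at 6.97 and 8.55 FPKM with IgG and 13.0 and 1.50 FPKM with the KIAA1429 antibody, so its replicates disagreed more than its groups. NOL7 had groups apart on the higher side, at 58.3 and 47.9 FPKM against 83.0 and 66.8 FPKM, a fold change of 0.49. NOL4L was at 1.01 and 1.73 FPKM against 0.805 and 0.779 FPKM.

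The rest of the pathway gave no call either. Of 91 further genes of small-subunit, large-subunit, RNA polymerase I and exosome function, 90 were listed, and their median fold change was 0.17, with 25 apart on the higher side (27.8%, background 16.6%) and 8 on the lower (8.89%, background 15.2%). None passed the threshold, and EXOSC5, LAS1L, NSA2, RSL1D1 and TAF1D were higher at an unadjusted p under 0.05 (5 of 90, background 3.17%). TAF1D, a subunit of the RNA polymerase I selectivity factor, was at 1.79 and 0.898 FPKM with IgG and 7.72 and 12.2 FPKM with the KIAA1429 antibody. The mRNAs of 82 cytosolic ribosomal proteins and their like-named paralogues, the products whose assembly the factors serve, had a median of 0.66, with 60 apart on the higher side (73.2%, background 16.6%), 0 on the lower and 0 past the threshold.

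Features that the names did not fix were compared without a test. Over the most abundant listed transcript of each gene, the median length was 2469 bases for 51 factors and 2902 for 11063 gene totals, the median exon number was 12 against 8, and the median density of GGAC was 4.28 and 3.60 per kilobase. An intron held at least 1 snoRNA or scaRNA gene in 7 factors (13.7%), namely DKC1, NCL, NOL11, NOP53, NOP56, NOP58 and WDR43, compared with 2.83% of all gene totals. The median fold change of these 7 was 0.24, close to that of all factors.

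Longer factor mRNAs had slightly lower fold changes, as did longer mRNAs in general. Across the 51 factors Spearman's correlation of length with fold change was -0.25, and across all gene totals it was -0.19. The 11 factors of up to 1500 bases, NOP10 among them, had a median fold change of 0.39, and the 40 longer ones had 0.13 (0.22 and -0.02 for all gene totals). The same correlation for the density of GGAC was -0.13 across the factors and -0.085 across all gene totals. These correlations run across genes within the same 4 libraries and are given as descriptions.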

How the data were processed

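RIP-seq libraries of HCCLM3 cells (2 KIAA1429 RIP, 2 IgG RIP) were made from poly(A)-selected RNA with random primers and sequenced on an Illumina HiSeq system. The study's methods name HISAT2 with GRCh37/hg19, and the submitters' processing notes name Bowtie2 2.1.0. The tool that produced the deposited FPKM values is not given in the sources used here, read counts were not analysed here, and the depth per library is unknown. The files listed 34975 transcripts, each at a mean of at least 0.500 FPKM in 1 group. FPKM was summed per gene name. Gene totals and single transcripts that averaged 1 FPKM or more were tested in limma 3.58.1 (R 4.3.3) on log2(FPKM + 1) with a trended variance and Benjamini-Hochberg adjustment. The study's RIP-seq thresholds (log2 fold change above 1, adjusted p under 0.05) were applied in both directions, but its count test was not, since the values are not counts. All 53 factors passed the filter. Genes named were the 5 highest and 5 lowest fold changes, the 5 most abundant, and those under an unadjusted p of 0.05 in the main or the replicate block fit. The snoRNP, UTP-A, UTP-B and PeBoW mRNAs, NCL, NPM1 and the near-identical copies were named as well. NOL7, NOL8, ALG11, HEATR1, TBL3, PWP2, SNU13 and the pathway genes under an unadjusted p of 0.05 were named after their values were seen. Members and lists were chosen with earlier results of these data known. Sequences and overlaps came from GRCh37 with GENCODE 44 lifted to that build, and identities from blastn 2.17.0. The fit was tested on simulated data, where recovery of planted changes was required only at a spread far below that of the data. Recovery at the real spread is not given here. Alternatives covered pseudocounts, filters, scaling, transcript choice, replicate block and each library left out.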

Additional observations from a re-analysis of the deposited data

How the results depend on the processing

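No factor passed the threshold under any alternative except the replicate block, and the median fold change stayed positive under all of them. With the replicate number of the labels as a block, 1 factor passed, WDR75 (adjusted p = 0.025), among 13 gene totals overall. The labels share numbers between the groups but do not say that a number marks a common batch. Same-numbered libraries deviated together only slightly (correlation 0.187 over gene totals, 0.109 over the factors). The block was therefore not used for the results above, except in the rule that chose the genes to name. NOP2 was named through the block fit only. Across the other alternatives the adjusted p of WDR75 reached 1.00. The number of factors apart on the lower side was 2 with a filter at 5 FPKM (background 14.9%). It was also 2 with the most abundant transcript of each gene (background 14.4%). With 1 library left out at a time, the median ran from 0.02 to 0.45, the factors apart numbered 21 to 37 on the higher side and 5 to 15 on the lower, and 0 gene totals and 0 transcripts passed. The lone library of a group was then assumed to vary like the others. With 1 library left out, the share of all gene totals apart rose too, to between 29.4% and 40.1% higher and between 29.5% and 37.9% lower. The highest median and 37 higher came without IgG RIP replicate 1 (background 40.1% higher). The lowest median and 15 lower (28.8%, background 37.9%) came without IgG RIP replicate 2.

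Of 32 factors named by rule, 17 kept their sign under every alternative. With protein-coding transcripts only, the fold change was 0.044 for FBL, 0.95 for NOP56 and 0.31 for WDR3. With the most abundant transcript it was 0.26 for FBL, 0.44 for NOL3, 0.95 for NOP56, -0.51 for PES1, -0.63 for UTP15 and 0.011 for UTP6. With 1 library left out the sign turned in the ranges -0.26 to 0.076 for BOP1, -0.67 to 0.050 for DKC1, -0.26 to 0.041 for FBL, -0.24 to 0.31 for NOL11, -1.80 to 0.68 for NOL3, -0.13 to 1.77 for NOP2, -0.11 to 0.58 for NOP53, -0.025 to 0.022 for NOP56, -0.036 to 0.87 for NOP58, -0.11 to 0.31 for PES1, -0.14 to 2.41 for UTP14C, -0.60 to 1.50 for UTP15, -0.38 to 0.12 for UTP18, -0.93 to 0.25 for UTP6 and -0.96 to 0.58 for WDR3. The cause of these turns was not tested. FPKM without read counts gives no depth, so no counting interval could be set on any value.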
